A study of Mus musculus with 2 samples.

Results

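The genes described here are 10 squamous differentiation genes other than keratins, the suprabasal and cornified envelope genes *Sbsn*, *Dmkn*, *Krtdap*, *Lor*, *Ivl* and *Sprr1a*, the crosslinking enzyme gene *Tgm1*, the calmodulin-like gene *Calml3* and the regulators *Zfp750* and *Grhl3*. They were taken by symbol from a table of raw read counts for 49492 genes. They were chosen by their counts and fold change between these libraries as well as by their role, since *Zfp750* and *Calml3* are among the genes that differ most. Their fold changes are therefore given as a description and were not tested. The table held 2 libraries of mammary basal cells, which form the contractile outer layer of the gland's ducts and include its stem cells. Both came from adult wild-type female mice and both were labelled day 7. CL basal cells came from mice given repeated intraperitoneal injections of clodronate liposomes (CL), lipid vesicles that kill the macrophages that take them up. Ctrl basal cells came from mice whose label gives no treatment and which the series design calls saline treated. In both groups the cells were sorted as CD24 positive and CD29 high after removal of cells with CD45, CD31 or TER119, the markers of leukocytes, endothelium and red cells. How many mice gave each library is not given in the sources used here.

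Squamous differentiation is the programme by which stratified epithelia such as the epidermis build a barrier. Basal cells leave the basement membrane, switch keratins, and assemble under the plasma membrane a cornified envelope of proteins such as involucrin, loricrin and small proline-rich proteins, which transglutaminases join by covalent bonds. The mammary epithelium arises from the skin ectoderm and its basal layer keeps the keratins of the basal epidermis, but the mammary gland does not normally cornify.

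With 1 library per group, none of the differences could be set against a spread between replicates, and intervals cover counting error only. Ctrl basal held 37846008 counts and CL basal 38962512. The keratins of the basal layer were abundant in both libraries. *Krt14* had 8372 TPM (counts per exonic base, scaled to the same sum in each library) in Ctrl basal and 9366 in CL basal, and *Krt5* had 1500 and 1301. Even numbers were over-represented among low counts, since 67.9% (Ctrl basal) and 68.7% (CL basal) of values up to 20 were even. The 2 mates of a pair were probably counted one by one, which makes the intervals too narrow, so intervals with all counts halved are also given for the genes they bear on.

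The genes fall in part into gene clusters, which bears on their shared sequence (coordinates on GRCm38). *Sbsn* (suprabasin), *Dmkn* (dermokine) and *Krtdap* (keratinocyte differentiation-associated protein) encode secreted proteins of the suprabasal epidermis and lie side by side on the plus strand of chromosome 7, with no other gene of the table wholly inside the 39.6 kb they span. *Sbsn* covers 30751471 to 30756134, *Dmkn* 30763756 to 30781063 and *Krtdap* 30787896 to 30791097. *Lor* (92080271 to 92083142), *Sprr1a* (92483952 to 92485895) and *Ivl* (92570902 to 92573735) lie on the minus strand of chromosome 3 in the epidermal differentiation complex, within 493 kb. Each of the others is the only gene described here on its chromosome. *Calml3* lies on chromosome 13 (3802893 to 3804318), *Zfp750* on chromosome 11 (121510978 to 121519333), *Grhl3* on chromosome 4 (135541888 to 135573630) and *Tgm1* on chromosome 14 (55700009 to 55713492).

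The 250 bases before the RefSeq start sites (GRCm38.p6) are shown for the 6 genes of these clusters to show where a shared motif lies in them. Sequences run 5′ to 3′ on the strand of the gene. Capitals mark matches to TGANTCA, the letters used here for the AP-1 motif, in which N accepts any base. They were searched on both strands. *Dmkn* has 3 start sites in the table, and the first is shown.
*Sbsn* (chr7:30751221-30751470, plus strand): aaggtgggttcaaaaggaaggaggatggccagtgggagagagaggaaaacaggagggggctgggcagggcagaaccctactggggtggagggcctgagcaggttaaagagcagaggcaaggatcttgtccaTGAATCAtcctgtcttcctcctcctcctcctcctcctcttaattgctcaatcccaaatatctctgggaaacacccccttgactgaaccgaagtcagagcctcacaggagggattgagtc
*Dmkn* (chr7:30763506-30763755, plus strand): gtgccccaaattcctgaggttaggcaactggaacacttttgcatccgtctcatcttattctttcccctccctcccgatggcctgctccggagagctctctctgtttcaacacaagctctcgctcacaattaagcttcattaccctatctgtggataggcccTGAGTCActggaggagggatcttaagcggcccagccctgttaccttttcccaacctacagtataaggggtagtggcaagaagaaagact
*Krtdap* (chr7:30787655-30787904, plus strand): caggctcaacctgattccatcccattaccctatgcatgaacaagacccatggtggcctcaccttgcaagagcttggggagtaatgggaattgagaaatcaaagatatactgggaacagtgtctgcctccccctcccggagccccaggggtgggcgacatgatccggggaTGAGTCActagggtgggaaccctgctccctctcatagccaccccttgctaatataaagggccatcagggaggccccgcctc
*Lor* (chr3:92083143-92083392, minus strand): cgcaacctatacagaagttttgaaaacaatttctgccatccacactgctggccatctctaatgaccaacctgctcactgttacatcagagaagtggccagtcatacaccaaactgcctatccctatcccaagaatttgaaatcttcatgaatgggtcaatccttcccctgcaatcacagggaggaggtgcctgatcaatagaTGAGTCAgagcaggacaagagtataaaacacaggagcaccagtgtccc
*Sprr1a* (chr3:92485882-92486131, minus strand): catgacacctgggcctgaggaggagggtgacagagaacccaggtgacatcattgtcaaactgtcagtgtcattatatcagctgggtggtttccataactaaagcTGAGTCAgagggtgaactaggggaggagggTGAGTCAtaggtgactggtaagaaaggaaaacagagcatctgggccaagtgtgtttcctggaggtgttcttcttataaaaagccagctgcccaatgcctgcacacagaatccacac
*Ivl* (chr3:92573736-92573985, minus strand): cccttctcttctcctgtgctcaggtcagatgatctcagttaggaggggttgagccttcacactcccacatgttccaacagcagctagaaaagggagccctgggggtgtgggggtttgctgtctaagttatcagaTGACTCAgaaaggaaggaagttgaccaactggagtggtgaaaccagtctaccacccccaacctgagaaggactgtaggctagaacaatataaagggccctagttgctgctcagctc

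AP-1 is the dimer of Fos and Jun family proteins, long known to act at the promoters of epidermal envelope genes. All 6 of these genes held at least 1 match, *Sprr1a* held 2, and the 2 genes of the remaining windows, *Grhl3* and *Tgm1*, held none. The middle base was A in *Sbsn*, C in *Ivl* and G in the other matches, so the *Sbsn* match rests on accepting any base there. Counted by window, 8 of the 11 windows of these 8 genes held a match, of which 2 *Dmkn* windows overlap almost entirely, against 6.75% of all 32851 windows of the same length. The matched first base stood between 48 bases (*Lor*) and 146 bases (*Sprr1a*) before the start site. The genes with a match included both genes lower in CL basal (*Sbsn*, *Dmkn*) and genes higher in CL basal (*Lor*, *Sprr1a*). The grainyhead-like motif AACNGGTT, which Grhl3 and its relatives bind, was found in 0 of the 11 windows and in 1.79% of all windows. The KLF motif GGGTGNGGC was found in 0 of the 11 and in 4.57% of all windows. *Calml3* and *Zfp750* had no entry among the windows used. A match is a description of the letters only.

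**Figure D1:**
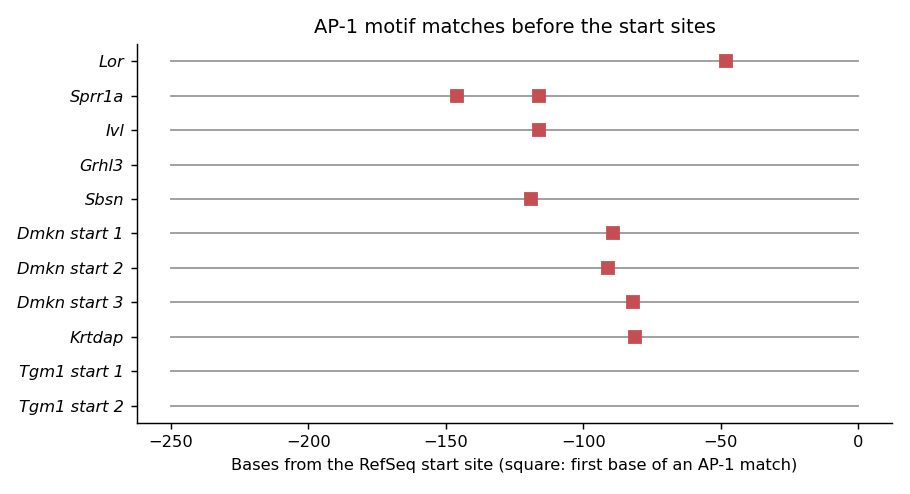
Position of AP-1 motif matches in the 11 promoter windows of 8 squamous genes. The x axis is the distance in bases from the RefSeq start site, each grey line is 1 window of 250 bases, and each red square is the first base of a match. Squares stand between 146 and 48 bases before the start site, and the windows of *Grhl3* and *Tgm1* hold none.

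Levels per length ran from undetected to percentile 80.1 of the genes detected. In Ctrl basal, *Sbsn* was highest with 23.04 TPM (95% exact Poisson interval 21.75 to 24.38). *Sprr1a* followed with 10.92 TPM (9.094 to 13.0), then *Tgm1* with 7.806 and *Dmkn* with 7.518, which did not differ beyond counting error (ratio 0.876 to 1.23). *Zfp750* stood at 3.349 TPM. The levels of *Calml3* (1.175 TPM), *Ivl* (1.017), *Grhl3* (0.9264) and *Lor* (0.7066) ran close together, and no neighbours in that order differed beyond counting error. *Krtdap* had 0 counts, which allows up to 0.0782 CPM (counts scaled to library size) at a floor of 3 counts, used here in place of the upper bound of the Poisson interval.

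In CL basal the order changed. *Sprr1a* was highest with 15.79 TPM (13.57 to 18.28), above *Sbsn* with 12.0 TPM (11.07 to 12.98), and the interval of their ratio was 1.11 to 1.56. *Tgm1* had 9.269 TPM. *Calml3*, with 4.612 TPM, now stood above *Dmkn* with 3.291 TPM (ratio 1.05 to 1.87), while in Ctrl basal it had stood below it, but with counts halved the interval of this ratio, 0.921 to 2.13, includes 1. *Grhl3* (1.597 TPM) and *Lor* (1.312 TPM) did not differ beyond counting error (ratio 0.787 to 1.92). *Zfp750* stood at the level of *Ivl*, with 0.6126 and 0.6255 TPM. *Krtdap* had 2 counts, under the limit that a count of 0 allows, so no fold is given.

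**Figure D2:**
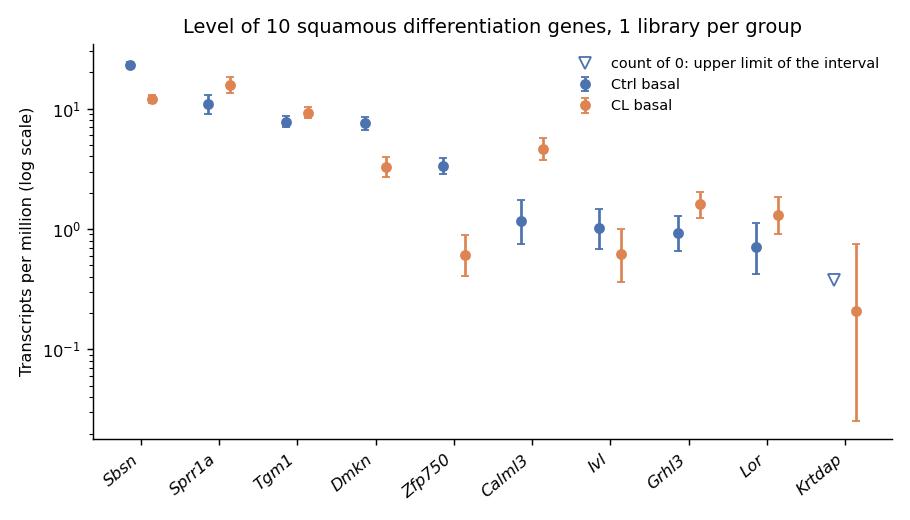
Level of the 10 squamous genes in TPM on a log scale, in Ctrl basal (blue) and CL basal (orange), 1 library each. Bars are 95% exact Poisson intervals and the open triangle is the upper limit for *Krtdap* at 0 counts. *Sbsn* leads in Ctrl basal with 23.04 TPM and *Sprr1a* in CL basal with 15.79 TPM.

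The comparison of CL basal with Ctrl basal gave no common direction. Of the 10 genes, 9 had at least 20 counts over both libraries, and the ratio of CL basal to Ctrl basal was above 1 for 5 of these and below 1 for 4, with a median log2 fold change of 0.23 against -0.01 over all 17356 genes with as many counts. Without that minimum the median was 0.36, because *Krtdap*, with 2 and 0 counts, then enters it. At a change of at least 2-fold, 1 was higher (*Calml3*) and 2 were lower (*Dmkn*, *Zfp750*). By the same rule 2.07% of all these genes were higher and 4.78% lower. At 1.5-fold, 3 were higher and 4 lower, against 6.34% and 11.7% of all genes. Since these genes were picked with the contrast known, nothing is read from their share.

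The lower genes were led by a regulator. *Zfp750*, a zinc finger transcription factor that switches on terminal differentiation genes of keratinocytes, had 155 counts in Ctrl basal and 28 in CL basal. The level was 5.25-fold higher in Ctrl basal, and its change on the log2 scale was -2.39 (95% exact binomial interval -3.11 to -1.88, and -3.41 to -1.64 with counts halved). Among the genes with at least 100 and under 1000 counts, to which *Zfp750* belongs, 3.26% were lower by 2-fold or more. *Zfp750* lies wholly within the span of *Tbcd* on the other strand and shares 0 exonic bases with it. *Tbcd*, a cofactor of tubulin folding, had 327 and 266 counts and a change of -0.30 on the log2 scale (-0.54 to -0.06). Since the use of strand is not given in the sources used here, intron reads of *Tbcd* and reads of *Zfp750* cannot be told apart.

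The neighbours *Sbsn* and *Dmkn* were both lower in CL basal. *Sbsn* had 1196 counts in Ctrl basal and 615 in CL basal, 1.95-fold higher in Ctrl basal, with a log2 fold change of -0.96 (-1.10 to -0.82) that lay just under 2-fold. *Dmkn* had 236 and 102 counts, 2.29-fold higher in Ctrl basal, with a log2 fold change of -1.20 (-1.56 to -0.87). The intervals of the 2 genes overlap, and whether their changes differ was not tested. *Sbsn* shares 279 of its 3625 exonic bases with the same-strand gene *RP24-63G4.14* (71 counts in Ctrl basal and 36 in CL basal), and reads from those bases could belong to either.

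*Ivl*, which encodes involucrin, an early protein of the envelope, had 28 counts in Ctrl basal and 17 in CL basal. Its log2 fold change of -0.66 had an interval from -1.68 to 0.20, which includes 0, and this depth could not show a difference.

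The higher genes were led by *Calml3*, a calmodulin-like calcium binding protein of epithelial cells. It had 24 counts in Ctrl basal and 93 in CL basal, 3.65-fold higher in CL basal, and its log2 fold change was 1.87 (1.29 to 2.66, and 1.01 to 3.002 with counts halved). Among genes with at least 100 and under 1000 counts, 0.842% were higher by 2-fold or more. *Grhl3*, a grainyhead-like factor required for the epidermal barrier, had 37 and 63 counts and a log2 fold change of 0.73 (0.16 to 1.39). *Lor*, which encodes loricrin, the bulk protein of the cornified envelope, had 18 and 33 counts and a log2 fold change of 0.80 (0.001 to 1.79). With counts halved both intervals included 0, at -0.11 to 1.68 for *Grhl3* and -0.38 to 2.23 for *Lor*.

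*Sprr1a*, a small proline-rich envelope precursor, had 126 counts in Ctrl basal and 180 in CL basal, 1.42-fold higher in CL basal. Its log2 fold change was 0.51 (0.18 to 0.85, and 0.03 to 1.0 with counts halved). *Tgm1*, the transglutaminase that fixes the envelope proteins to one another, had 336 and 394 counts and the smallest change of the 9 genes, 0.23 (0.01 to 0.44, and -0.08 to 0.53 with counts halved). The point values of the chromosome 3 complex genes therefore differed in sign, with *Lor* and *Sprr1a* above 0 and *Ivl* below. The interval of *Ivl* includes 0, as does that of *Lor* with counts halved. Differences between these genes were not tested.

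**Figure D3:**
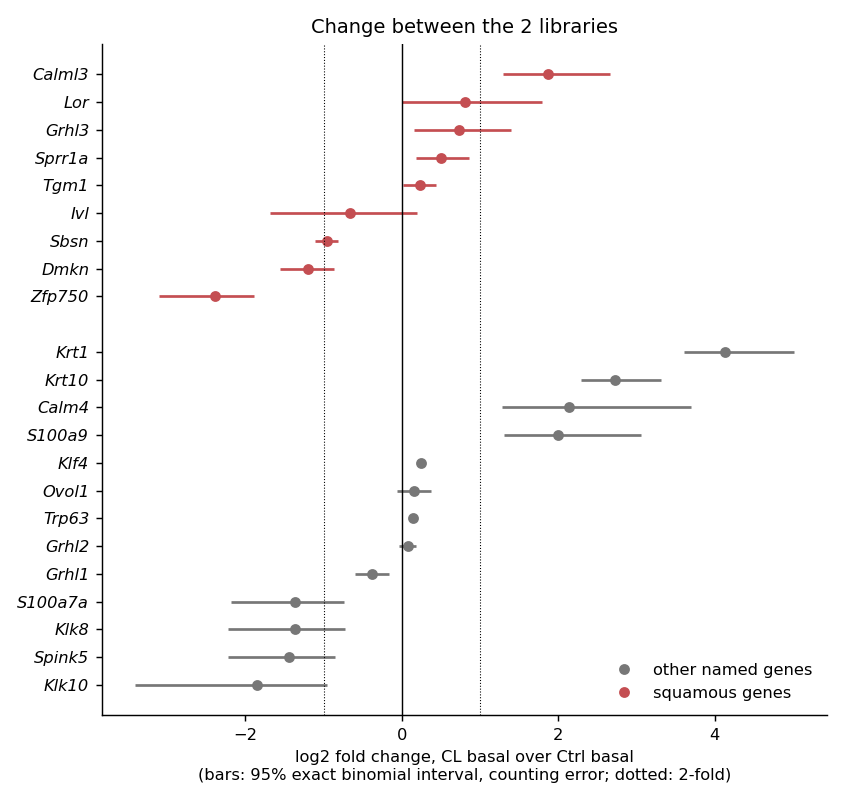
Log2 fold change of CL basal over Ctrl basal for the 9 squamous genes with at least 20 counts (red) and for other named genes (grey). Bars are 95% exact binomial intervals and dotted lines mark 2-fold. *Zfp750* at -2.39 and *Calml3* at 1.87 are the ends of the red group.

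**Figure D4:**
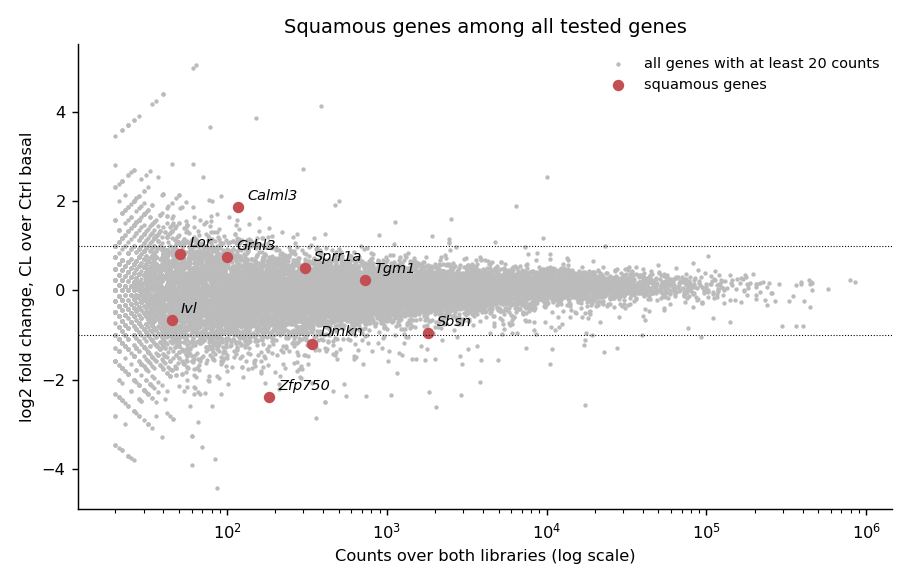
Log2 fold change against the counts over both libraries (log scale) for all 17356 genes with at least 20 counts (grey) and the 9 squamous genes (red). The spread of the grey points narrows with counts, from a standard deviation of 0.92 at 20 to 99 counts to 0.28 at 1000 or more, where *Sbsn* lies at -0.96.

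Other genes of the programme were counted from 6 lists by role, 108 genes in all, of which 50 had at least 20 counts. Of these 50, 4 were lower and 2 were higher by 2-fold or more, where 4.78% and 2.07% of all genes were, with a median log2 fold change of -0.06. The 6 genes had few counts, between 42 and 100 over both libraries. Among the list genes with 20 to 99 counts, 3 of 9 were lower and 2 of 9 higher, where 15.2% and 7.66% of all genes of that class were. Of the 13 list genes with at least 100 and under 1000 counts, 1 was lower and 0 higher, where 3.26% and 0.842% of that class were. Of the 28 with 1000 counts or more, 0 were lower and 0 higher, where 0.521% and 0.155% of that class were.

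Most other envelope precursors were not detected. Of 46 listed, 35 had 0 counts in both libraries and 3 had at least 20, the trichohyalin gene *Tchh* and the plakin genes *Evpl* and *Ppl*, whose log2 fold changes ran from -0.58 to 0.17. The 34 small proline-rich (Sprr) and late envelope (Lce) genes besides *Sprr1a* held 8 counts in Ctrl basal and 17 in CL basal together, and 29 of them held 0. Of the 33 genes of the table from *Lor* to *Ivl* on chromosome 3, 4 had at least 20 counts and 21 had none. The fourth beside *Lor*, *Sprr1a* and *Ivl* was *Gm9774*, named after its values were seen, with 56 counts in Ctrl basal and 64 in CL basal. Among transglutaminases, *Tgm2*, the broadly expressed tissue enzyme, was the 1 of 3 with enough counts, at -0.34.

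Epidermal proteases and their inhibitors held 3 of the 4 lower genes. These were 3 of the 10 tested in that list, where 4.78% of all genes were lower by 2-fold or more. Among genes with 20 to 99 counts the share was 15.2%. The kallikrein proteases *Klk10* (34 counts in Ctrl basal and 8 in CL basal, log2 fold change -1.85, -3.41 to -0.95) and *Klk8* (60 and 22, -1.37, -2.23 to -0.72) lie 12.2 kb apart on chromosome 7. *Spink5*, which encodes an inhibitor of epidermal kallikreins, had 74 and 26 counts (-1.44, -2.22 to -0.85). The other 7 tested genes of that list were under 2-fold. All 10 tested barrier lipid genes were under 2-fold, with a median of -0.08.

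Calcium binding genes went both ways. Of 7 tested, 2 were higher and 1 lower by 2-fold or more, where 2.07% and 4.78% of all genes were. The median log2 fold change was -0.44, and 5 had an interval wholly below 0 and 2 wholly above. The interval was wholly below 0 for 25.3% of all genes. *Calm4*, a calmodulin-like gene of the epidermis 33.4 kb from *Calml3*, had 8 counts in Ctrl basal and 42 in CL basal (2.13, 1.28 to 3.69). *S100a9*, which neutrophils and stressed keratinocytes express, had 15 and 66 counts (1.997, 1.31 to 3.05). *S100a7a*, 34.0 kb from *S100a9*, had 65 and 24 counts (-1.37, -2.18 to -0.74). *Calml3* and *Calm4* are related in sequence, and whether reads were shared between them is not known here.

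The wider list of regulators, which does not hold *Zfp750* and *Grhl3*, ran from scarce to abundant genes. All 19 of its genes were tested and 0 passed 2-fold, with log2 fold changes from -0.77 (*Ehf*) to 0.45 (*Maf*) and a median of 0.14. *Prdm1* was scarcest in Ctrl basal with 2.759 TPM there and 3.361 in CL basal. *Klf4*, a barrier-forming zinc finger factor, had 364.7 TPM in Ctrl basal and 438.7 in CL basal (log2 fold change 0.24, 0.21 to 0.28). *Trp63*, the master factor of stratified epithelia, had 49.8 and 55.63 TPM (0.14, 0.09 to 0.19). *Ovol1*, a repressor active as cells leave the basal layer, was at 0.15 (-0.06 to 0.38). Within the grainyhead-like family, *Grhl2* was most abundant with 16.55 and 17.69 TPM (0.07, -0.04 to 0.18). *Grhl1* had 8.26 and 6.445 TPM (-0.38, -0.59 to -0.17), and *Grhl3* was scarcest. The interval of *Grhl3* (0.16 to 1.39) overlapped that of *Grhl2* and lay above that of *Grhl1*. Differences between these genes were not tested.

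Markers of other cells moved beside these genes. All 20 luminal markers had a ratio below 1 in CL basal over Ctrl basal, 18 of them with an interval wholly below 0 and 9 by 2-fold or more, with a median of -0.92. Of all genes tested, 51.7% had a ratio below 1, 25.3% had an interval wholly below 0 and 4.78% were lower by 2-fold or more. The summed level of the luminal markers was 5750 CPM in Ctrl basal and 3478 in CL basal. None of them was at 0. *Sbsn*, *Dmkn* and *Zfp750* were lower in the same library, and the part of luminal cells in that was not tested. In bulk samples, fewer cells of a type and less RNA per cell cannot be told apart.

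*Krt1* and *Krt10*, which form the filaments of suprabasal epidermis, were higher in CL basal. *Krt1* had 19 counts in Ctrl basal and 367 in CL basal (4.13, 3.60 to 5.02), and *Krt10*, its partner, had 38 and 262 (2.72, 2.29 to 3.31). The squamous genes described here went both ways beside them, with *Calml3* higher and *Sbsn*, *Dmkn* and *Zfp750* lower in CL basal. Other tested genes of the epidermal keratin list were not 2-fold higher. Of the 7 genes of that list, 5 were tested, 2 were higher and 1 was lower (*Krt78*, 659 and 267 counts, -1.30), where 2.07% and 4.78% of all genes were. *Krt80* was at -0.23 and *Krt23* at 0.11. The summed level was 71.3 CPM in Ctrl basal and 72.6 in CL basal, with *Krt77* at 0 in Ctrl basal. Most of that sum came from *Krt80* (1286 and 1099 counts), *Krt23* (728 and 789) and *Krt78*, so it does not show the rise of *Krt1* and *Krt10*. The part of epidermal cells in these values was not tested.

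The other marker lists are read against the 2.07% of all genes that were higher and the 4.78% that were lower by 2-fold or more. Of 10 basal and myoepithelial markers 0 passed 2-fold (median 0.03, 17770 CPM in Ctrl basal and 18430 in CL basal). Of 8 tested hair follicle and sebaceous markers 0 were higher and 2 lower (median 0.15, 2870 and 3419 CPM, 3 of the 17 listed at 0 in both). *Krt17* alone held 2291 of those CPM in Ctrl basal and 2569 in CL basal, and the 3 genes at 0 were *Krt27*, *Awat1* and *Gsdma*. *Krt15* lay just under 2-fold with 7783 counts in Ctrl basal and 15478 in CL basal, and it passed when scaled by the upper quartile. Of 8 tested macrophage markers 0 were higher and 1 lower (median -0.28, 27.84 and 26.01 CPM, *Fcgr1* at 0 in Ctrl basal), and the lower gene, *C1qc* with 22 counts in all, did not pass with a prior of 5 counts and fell under a minimum of 100 counts. Of 10 tested Langerhans and dendritic markers 4 were higher, all of them genes of MHC class II presentation, and 1 was lower (median 0.70, 116.5 and 434.6 CPM), while *Cd207*, which defines Langerhans cells, had 0 and 2 counts.

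**Figure D5:**
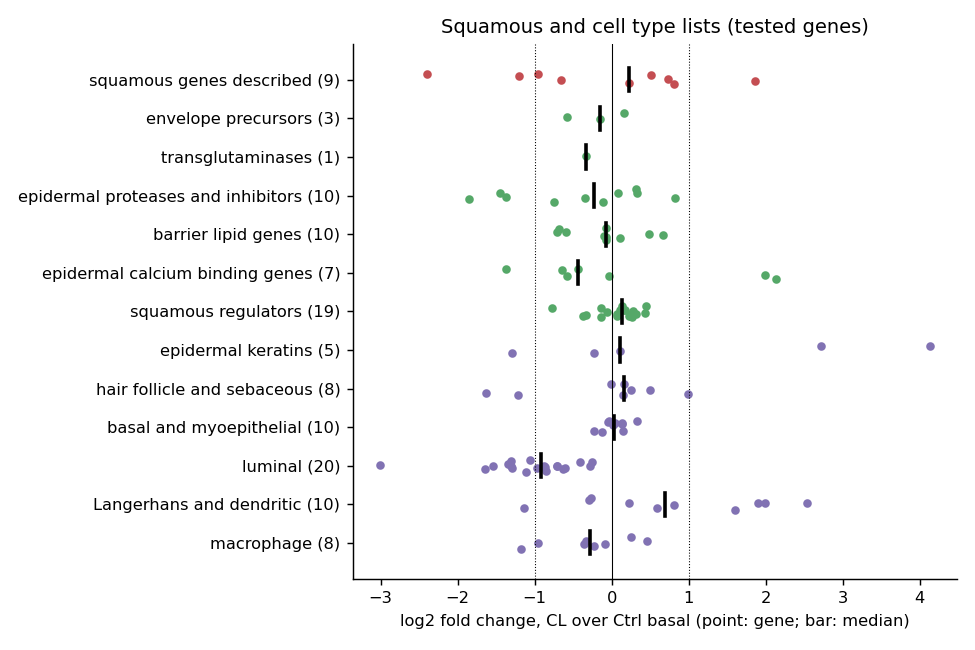
Log2 fold change of each tested gene in the squamous genes described (red), the 6 wider squamous lists (green) and 6 cell type marker lists (purple), with the number tested in brackets. Black bars are medians and dotted lines mark 2-fold. The luminal list lies wholly below 0 with a median of -0.92, while the squamous regulators lie between -0.77 and 0.45.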

How the data were processed

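Total RNA of sorted mammary basal cells was sequenced in Ctrl basal and CL basal, with 1 library each at day 7. The labels name an RNeasy kit and a SMARTER mRNA library kit, while the study's methods name RNAiso Plus. The authors deposited raw counts per gene over annotated exons, in the layout of featureCounts, on GRCm38 (mm10) per the labels. The aligner, annotation release, use of strand and filters are not given in the sources used here. Exonic lengths came from the same file. The 2 remaining columns held the authors' ratio and log2 ratio and were not used. The coordinates of 8 of the 10 genes were the same in GENCODE M21.

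Counts were scaled by TMM effective library sizes (edgeR 4.0.16, R 4.3.3), and the TMM factors were 1.0136 in Ctrl basal and 0.9866 in CL basal. For log2 fold changes, a prior of 2 counts proportional to library size was added, and genes needed 20 counts or more summed over both libraries. TPM used counts over exonic length. Exact Poisson intervals of levels and exact (Clopper-Pearson) intervals of the share of reads in CL basal, both at 95%, were computed with scipy 1.17.1. They treat reads as independent, and PCR copies or mates counted one by one make them too narrow. A model with a spread between replicates could not be fitted to 1 library per group, so no p-value is given, and "called" means a change of at least 2-fold. The steps were tested on simulated counts.

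The genes and lists were chosen with earlier results of these data known. Named genes were the 10 genes, up to the 5 largest changes of at least 2-fold in each direction over the 6 wider lists, *Trp63*, *Klf4*, *Grhl1*, *Grhl2*, *Ovol1*, *Krt1*, *Krt10*, *Krt5*, *Krt14* and genes overlapping one of the 10. One further gene of that rule is not reported here. Others are named to give the ends of a range or as exceptions. With 2 libraries, no likeness of pattern between genes was computed. Alternatives were scaling by total counts, the upper quartile or DESeq2 1.42.0 size factors, a prior of 0.5 or 5 counts, a minimum of 100 counts or none, counts halved, the deeper library thinned, removal of a trend on mean expression (lowess, statsmodels 0.14.6), and a threshold of 1.5-fold. Promoter windows came from RefSeq, where 8 of the 10 genes matched by symbol.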

Additional observations from a re-analysis of the deposited data

How the results depend on the processing

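The fold changes of the 9 squamous genes with enough counts kept their sign under every alternative that gave a value, and all 88 values lay inside the interval of the main value. *Zfp750* ran from -2.45 to -2.28, *Calml3* from 1.75 to 1.98, *Dmkn* from -1.24 to -1.11 and *Sbsn* from -0.999 to -0.92. The median of the squamous genes ran from 0.19 to 0.36 and that of all tested genes from -0.04 to 0.03. At a threshold of 1.5-fold, 3 squamous genes were higher and 4 lower, and in the wider squamous lists 4 were higher and 10 lower, where 6.34% and 11.7% of all genes were. Without a filter on low counts, 5 of 64 genes of the wider lists were higher and 8 lower, where 5.38% and 12.9% of all genes were. With at least 100 counts, 0 of 41 were higher and 1 lower (0.481% and 1.82% of all genes), since fewer genes were tested. *Lor* and *Ivl* have no value there. With counts halved, the intervals of *Lor*, *Grhl3* and *Tgm1* include 0. No paired analysis was possible because there was 1 library in each group. Depth limits *Ivl*, *Lor* and *Krtdap*, which have under 100 counts over both libraries.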
